A study of Mus musculus with 9 samples.

Results

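Gdf15 and Fgf21 encode the secreted proteins growth differentiation factor 15 and fibroblast growth factor 21, which are often grouped as mitokines, hormone-like signals released by cells with impaired mitochondria. The members were taken as the rows of the deposited count table whose Ensembl identifiers belong to these genes, which gave 2 of the 55536 rows. Both genes passed the filter on low counts and are among the 15720 genes tested. The table holds RNA sequencing counts from 9 libraries of mouse primary myoblasts, the dividing precursors of muscle fibres, which carry floxed Uqcrfs1, the gene of the iron-sulphur (Rieske) subunit of respiratory chain complex III. The floxed vehicle group (uqcrfs1 +/+, n = 3) received an adenovirus for green fluorescent protein and then DMSO. The knockout vehicle group (uqcrfs1 -/-, n = 3) received an adenovirus for Cre recombinase and then DMSO. The knockout oxybutynin group (uqcrfs1 -/-, n = 3) received the same Cre virus and then 7.5 µM oxybutynin, a muscarinic receptor antagonist, in an equal volume of DMSO. All groups were plated 72 h after the virus, and drug or DMSO was added 24 h after plating and kept for 5 days. There was no floxed group with oxybutynin, and genotype and virus cannot be told apart. Whether replicates came from separate cultures or animals is not in the labels, and p-values then measure only library-to-library spread, possibly a technical one. Not given in the sources used here is which exon the loxP sites flank.

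GDF15 is a distant member of the transforming growth factor beta superfamily. Its receptor is GFRAL, which signals through the kinase RET and is known from neurons of the hindbrain, where it lowers appetite. FGF21 belongs to the endocrine branch of the fibroblast growth factors and acts on cells that pair an FGF receptor with the co-receptor beta-klotho (KLB). It is best known from liver, and muscle makes it when mitochondrial function is disturbed. Transcription of both genes is known to be raised through the integrated stress response, in which phosphorylated eIF2 alpha favours translation of the transcription factor ATF4. ATF4 pairs with C/EBP family proteins such as CHOP (Ddit3) on a composite DNA element.

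Gdf15 (ENSMUSG00000038508) is a minus-strand gene of chromosome 8 that spans 70629393 to 70632456 in GRCm38. GENCODE M21 lists 2 transcripts for it, one of 2 exons and one of 3 exons, with different first exons and 1852 bases of exon in all. Fgf21 (ENSMUSG00000030827), a minus-strand gene of chromosome 7, spans 45613886 to 45615490 and has 1 transcript of 3 exons with 951 bases. No annotated gene overlaps either of them. The stretches just before their start sites are printed because both genes moved together between the floxed and knockout groups. They come from the RefSeq promoter table (GRCm38.p6), read on the minus strand at chr8:70632471-70632706 for Gdf15 and chr7:45615491-45615740 for Fgf21. Both run 5′ to 3′ in lower case, and capitals mark matches to the motifs searched.
Gdf15 upstream: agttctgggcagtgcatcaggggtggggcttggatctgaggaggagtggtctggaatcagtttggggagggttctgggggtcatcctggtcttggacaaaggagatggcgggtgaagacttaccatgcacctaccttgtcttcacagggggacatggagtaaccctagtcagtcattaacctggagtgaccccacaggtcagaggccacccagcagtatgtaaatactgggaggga
Fgf21 upstream: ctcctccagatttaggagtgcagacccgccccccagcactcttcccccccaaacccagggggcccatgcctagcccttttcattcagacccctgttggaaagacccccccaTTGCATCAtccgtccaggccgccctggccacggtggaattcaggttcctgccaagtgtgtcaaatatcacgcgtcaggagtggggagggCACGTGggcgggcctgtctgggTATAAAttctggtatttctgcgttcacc
The search covered both strands for 5 motifs, the C/EBP-ATF composite core TGATGNAA, the E-box CACGTG, the cAMP response element TGACGTCA, the AP-1 site TGANTCA and the TATA box core TATAAA. In the Fgf21 stretch, the capitals TTGCATCA are the composite core on the opposite strand, starting 139 bases before the start site. The capitals CACGTG begin 50 bases before it and TATAAA 28 bases before it. Of 32817 RefSeq promoter windows with 250 bases before and 50 after a start, 3.97% hold the composite core, 7.15% the E-box and 13.6% the TATA core. No motif matched in the printed Gdf15 stretch, which lies before the start of the 3-exon transcript. The window around the second Gdf15 start, that of the 2-exon transcript, overlaps an exon of the 3-exon transcript and held 1 E-box. The motifs not matched in Fgf21 occur in 1.79% of windows for the cAMP response element and 7.81% for the AP-1 site. These are matches of letters and do not show that any factor bound there.

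Loss of Uqcrfs1 was accompanied by higher transcript levels of both mitokines, with Gdf15 about 8.59-fold and Fgf21 about 3.23-fold above floxed cells. Gdf15 counts were 256, 272 and 287 in floxed cells (replicates 1 to 3), 2316, 2057 and 3165 in knockout cells given vehicle, and 3577, 3033 and 2701 in those given oxybutynin. Scaled by TMM library size to CPM (counts in a library of 1000000), these were levels of 13.1, 11.7 and 12.8 in floxed cells, 108, 86.1 and 128 in the knockout with vehicle, and 146, 119 and 121 in the knockout with oxybutynin. All 6 knockout libraries lay above all 3 floxed libraries, while the knockout groups overlapped. Group means were 12.5 ± 0.733, 107 ± 21 and 129 ± 14.8 CPM (SD, n = 3). Gdf15 rose from floxed to knockout vehicle with a log2 fold change of 3.10 ± 0.13 (SE, 95% interval 2.82 to 3.39, adjusted p = 1.1e-11, edgeR quasi-likelihood test with Benjamini-Hochberg adjustment, as for all adjusted p-values here). That placed it 84th from the highest log2 fold change among all tested genes. In bulk RNA of this kind, fewer cells of a type and less RNA per cell cannot be told apart.

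Fgf21 counts, in the same order, were 337, 318 and 352 in floxed cells, 1164, 920 and 1416 with knockout, and 1351, 1378 and 1139 with knockout and drug. As levels these were 17.2, 13.7 and 15.7 CPM, then 54.2, 38.5 and 57.3 CPM, then 55.1, 54.2 and 51.2 CPM. Again every knockout library stood above every floxed library, and the knockout vehicle range enclosed the whole oxybutynin range. Group means were 15.5 ± 1.78, 50.0 ± 10.1 and 53.5 ± 2.07 CPM (SD, n = 3). Fgf21 rose from floxed to knockout vehicle with a log2 fold change of 1.69 ± 0.13 (95% interval 1.41 to 1.97, adjusted p = 7.0e-09) and was 520th from the highest. Both members were thus called higher, where 29.9% of all tested genes were, and both separated the groups without overlap, as 66.7% of tested genes did. The median log2 fold change over all tested genes was -0.01. By exact two-sided permutation tests of log2 CPM over 3 against 3 libraries, each member gave p = 0.1, the smallest that design allows.

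**Figure D1:**
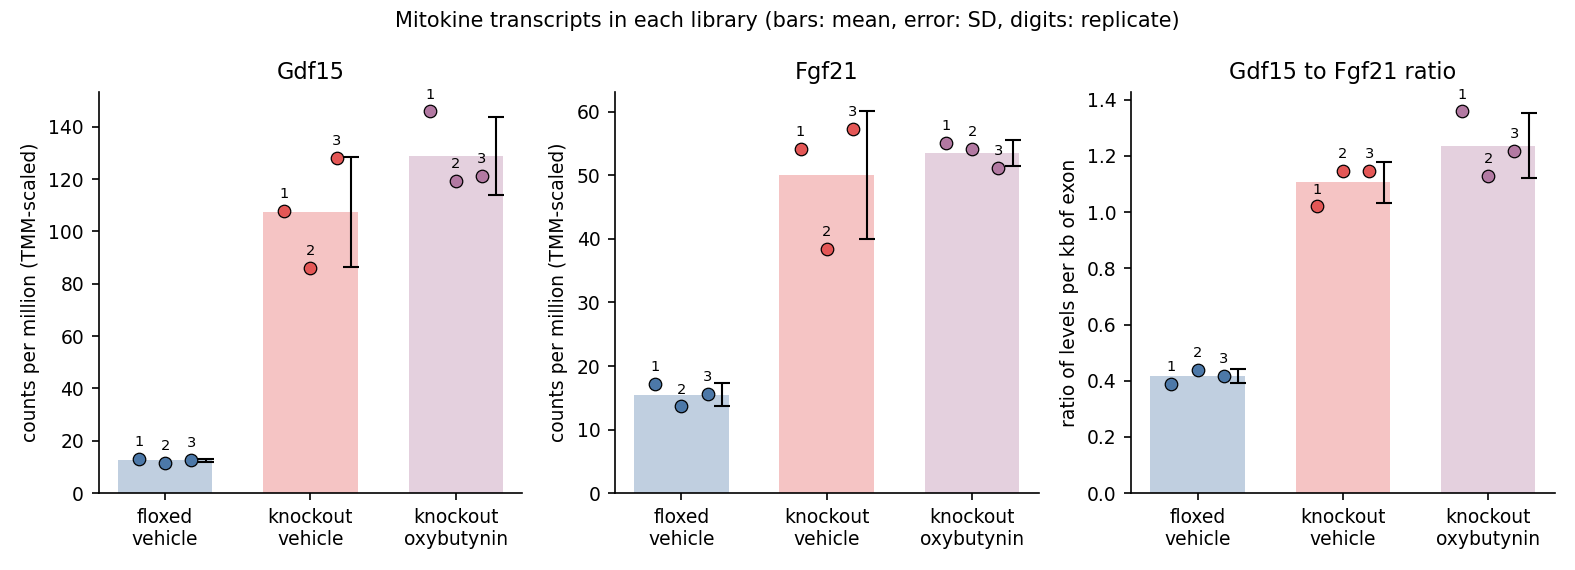
Transcript levels in each library for Gdf15 and Fgf21 (left and middle, TMM-scaled CPM) and their ratio per kilobase of exon (right), with bars for group means, error bars for SD (n = 3) and digits for the replicate. Knockout libraries lie above floxed libraries in every panel, from 86.1 against at most 13.1 CPM for Gdf15, and the 2 knockout groups overlap.

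Knockout vehicle replicate 2 was the lowest of its group for both members. The same library held 2.71% of its counts in mitochondrially encoded genes, against 2.04% and 1.95% in replicates 1 and 3, and it was the lowest of its group for 37.5% of all tested genes. Ribosomal RNA genes held 7.63% of its counts, against 9.91% and 11.8% in replicates 1 and 3, 7.70% to 8.33% in floxed cells and 10.8% to 14.0% with oxybutynin. The abundant small nuclear RNA Rn7sk held 2.36% of its counts, against 3.43% and 3.59%, 1.93% to 2.10% and 3.36% to 3.98%, in the same order. Gdf15 was lowest among knockout libraries where both shares were lowest and highest where both were highest. With mitochondrial and ribosomal RNA genes left out of the scaling, the log2 fold changes from floxed to knockout vehicle were 3.10 for Gdf15 and 1.69 for Fgf21. Without knockout vehicle replicate 2 the log2 fold change from floxed to knockout vehicle was 3.25 ± 0.10 for Gdf15 and 1.86 ± 0.09 for Fgf21. The part of Rn7sk in the result was not tested. Fold changes also ran with base composition. GC content was that of each gene's longest transcript. Across 15714 tested genes (not independent replicates), its Spearman correlation with the knockout vehicle to floxed vehicle log2 fold change was 0.562. For knockout oxybutynin against knockout vehicle it was 0.576. The longest Gdf15 transcript is 61.3% GC, the 97.8th percentile of tested genes. The Fgf21 transcript is 54.5% GC, the 76.7th percentile, beside a median of 49.1%. With the trend of every library on exonic GC and length taken out by offsets in the fit, the log2 fold changes were 2.63 ± 0.08 for Gdf15 (adjusted p = 9.52e-14) and 1.38 ± 0.09 for Fgf21 (adjusted p = 2.0e-09). That fit called 9284 of the 15720 tested genes, 47.9% of them higher.

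The ratio of the mitokine transcripts to each other was higher in every knockout library than in every floxed library. Per kilobase of exon, the ratio of Gdf15 to Fgf21 was 0.390, 0.439 and 0.419 in floxed cells, 1.02, 1.15 and 1.15 in the knockout with vehicle, and 1.36, 1.13 and 1.22 in the knockout with oxybutynin. Fgf21 was the more abundant of the pair in every floxed library, and Gdf15 was the more abundant in every knockout library. The mean ratio was 0.416 ± 0.0247, 1.11 ± 0.0729 and 1.24 ± 0.116 (SD, n = 3). Knockout vehicle exceeded floxed vehicle by 1.41 in the mean log2 ratio (exact two-sided permutation p = 0.1, Benjamini-Hochberg value 0.15 over 3 tests, smallest possible p 0.1). Oxybutynin exceeded vehicle in knockout cells by 0.16 (exact permutation p = 0.3, Benjamini-Hochberg value 0.3).

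Oxybutynin did not bring a called change to either mitokine in knockout cells. Gdf15 was 1.20-fold higher with the drug (log2 fold change 0.26 ± 0.12, 95% interval 0.02 to 0.51, adjusted p = 0.17), and its highest and lowest oxybutynin libraries were 146 and 119 CPM beside 128 and 86.1 CPM with vehicle. Fgf21 gave a log2 fold change of 0.10 ± 0.12 (95% interval -0.16 to 0.36, adjusted p = 0.64). Over all genes, edgeR called 2 (0.0127%) in this comparison, 1 in each direction (0.00636%), DESeq2 called 1134 and limma-voom 3, and 4084 genes had an unadjusted p under 0.05. Neither member was called by any of these tools. The unadjusted p of Gdf15 was 0.039, and that of Fgf21 was 0.44. The Gdf15 value moved with single libraries of both knockout groups. Without knockout vehicle replicate 3 it was 0.41 ± 0.11 and past the threshold (adjusted p = 0.017), in a fit that called 4188 genes. Without replicate 2 it was 0.13 ± 0.09 (adjusted p = 0.49), and without knockout oxybutynin replicate 1 it was 0.16 ± 0.13 (adjusted p = 0.53). With the GC and length trend removed, it was 0.03 ± 0.06 for Gdf15 and -0.08 ± 0.09 for Fgf21, neither called. The intervals leave room for a rise of Gdf15 of up to 0.51 on the log2 scale, and for Fgf21 they include 0.

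With the drug, both mitokines were called higher than in floxed cells. Gdf15 was 10.3-fold above floxed vehicle (log2 fold change 3.37 ± 0.14, adjusted p = 3.7e-12) and Fgf21 3.46-fold (1.79 ± 0.13, adjusted p = 2.1e-09). In this comparison 35.1% of tested genes were called higher and 78.9% had groups that did not overlap, both members among them. This comparison shares its floxed libraries with the knockout vehicle comparison and its treated libraries with the drug comparison, so the 3 sets of values are not independent.

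Each mitokine was the most abundant ligand of its family in both knockout groups. Levels between genes are compared here as RPKM, the CPM value divided by exon length in kilobases. Fgf21 was first of 22 FGF ligand genes in all 3 groups, at 16.3 ± 1.88 RPKM in floxed cells, 52.6 ± 10.6 RPKM in the knockout with vehicle and 56.3 ± 2.18 RPKM with the drug (SD, n = 3). The next was Fgf13, an intracellular member of the family that is not secreted as a growth factor, at 7.82 ± 0.548, 7.14 ± 0.732 and 6.07 ± 0.617 RPKM. Its libraries did not overlap those of Fgf21 in any group.

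Gdf15 changed place in its family. In floxed cells, at 6.75 ± 0.396 RPKM, it was the fourth of 33 ligands of the TGF-beta superfamily, after Tgfb3 (13.4 ± 0.849 RPKM), Gdf11 (12 ± 0.544 RPKM) and Mstn (7.95 ± 0.599 RPKM), the muscle growth inhibitor myostatin. Its floxed libraries overlapped neither Mstn above it nor Gdf6 below it (5.70 ± 0.171 RPKM), while Tgfb3 and Gdf11 overlapped each other. In knockout cells it was first, at 58.0 ± 11.4 RPKM with vehicle and 69.6 ± 8.02 RPKM with oxybutynin. Tgfb1, next in both knockout groups, had 11.9 ± 1.29 and 13.8 ± 0.528 RPKM and did not overlap Gdf15.

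**Figure D2:**
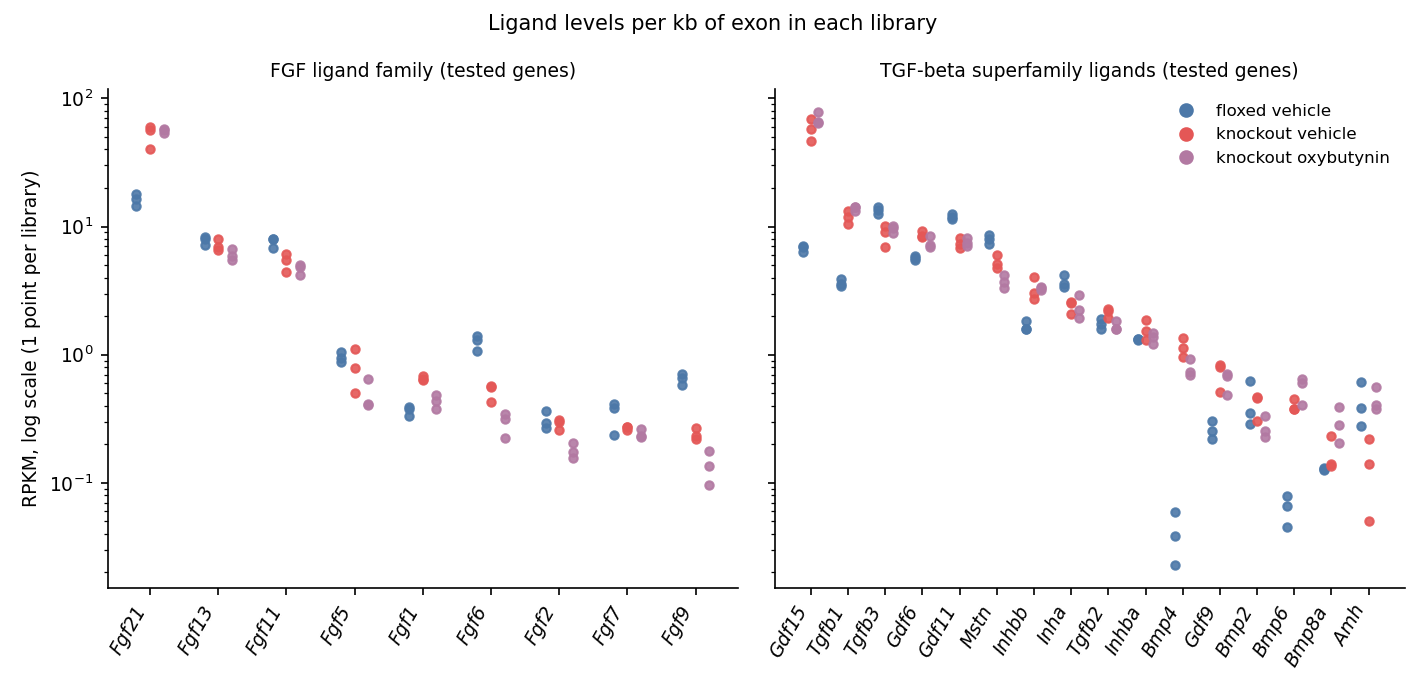
Levels of the tested FGF ligands (left) and TGF-beta superfamily ligands (right) in RPKM on a log scale, 1 point per library, with colours for the 3 groups and genes ordered by their knockout vehicle mean. Fgf21 leads its family in every group, and Gdf15 stands at 6.75 RPKM among Mstn and Gdf6 in floxed cells and above all its relatives in knockout cells.

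The other family members moved in both directions. Of 21 other FGF ligand genes only 8 had enough counts to be tested, and from floxed to knockout vehicle 1 rose, 3 fell and 4 were not called, where 29.9% of all tested genes rose and 33.4% fell. The one that rose was Fgf1 (log2 fold change 0.83 ± 0.19, adjusted p = 0.00091), an FGF that binds all FGF receptors. Those that fell were Fgf6 (-1.27 ± 0.19), which is expressed in skeletal muscle and its precursors, Fgf9 (-1.41 ± 0.24) and the intracellular member Fgf11 (-0.50 ± 0.12). The list's median log2 fold change was -0.32. With the GC and length trend removed Fgf9 was at -0.63, Fgf11 at -0.85 and Fgf2, uncalled before, was called higher. Counts of Fgf6 were 127, 115 and 137 in floxed cells, 43, 62 and 65 in the knockout with vehicle and 36, 41 and 23 with the drug, so Fgf6 was highest in the floxed libraries, where Fgf21 was lowest. With the drug in knockout cells, edgeR, DESeq2 and limma-voom called 0 of the 8 tested FGF ligands, 6 had an unadjusted p under 0.05, and the median log2 fold change was -0.64. Over all 15720 tested genes 4084 had an unadjusted p under 0.05. Without knockout vehicle replicate 3, 4 of the 8 were called lower, in a fit that called 4188 of 16097 genes, 44.7% of them higher.

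Of the 32 other TGF-beta superfamily ligands 15 were tested, and 7 rose, 5 fell and 3 were not called, with a median log2 fold change of 0.30. Over all tested genes 29.9% rose and 33.4% fell, and with the GC and length trend removed 9 of the 15 were higher and 4 lower. That setting called 9284 of 15720 genes, 47.9% of them higher. Tgfb1, a broadly acting member that restrains muscle differentiation, rose by 1.71 ± 0.10 on the log2 scale (adjusted p = 2.3e-10) and was at 19.8, 18.1 and 17.3 CPM in floxed vehicle against 60.3, 53.3 and 66.3 CPM in knockout vehicle. Bmp4 had 1, 2 and 3 counts in floxed cells beside 46, 73 and 63 in vehicle-treated knockout cells, and Bmp6 rose by 2.64 ± 0.35. Gdf11 fell by 0.69 on the log2 scale (SE 0.10, adjusted p = 7.3e-06). Mstn fell by 0.59 (SE 0.12, adjusted p = 0.00032), but with the GC and length trend removed its log2 fold change was 0.45 ± 0.10, the opposite direction.

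Receptors for the mitokines were examined next, as they set whether a cell can respond to its own ligand. Gfral had 0 counts in all 9 libraries, which allows at most 3 counts in each. Ret, its signalling partner, was at 11.4, 11.8 and 12.9 CPM in floxed vehicle and 7.78, 8.58 and 7.57 CPM in knockout vehicle, without overlap, and fell by 0.59 on the log2 scale (SE 0.12, adjusted p = 0.00031). For FGF21, the co-receptor gene Klb had 0, 1 and 1 counts in floxed cells and 0, 0 and 4 in each of the knockout groups. Kl, which encodes the co-receptor of FGF23, had between 1 and 9 counts per library. These 3 genes were too low to be tested.

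FGF receptor genes were well above those levels and moved apart. Fgfr1, the main partner of beta-klotho for FGF21, rose from 177 ± 5.64 CPM in floxed vehicle to 221 ± 16.0 CPM in knockout vehicle (SD, n = 3), a log2 fold change of 0.32 ± 0.08 (adjusted p = 0.0016) that was 0.06 (adjusted p = 0.37) with the GC and length trend removed. Fgfr3 rose by 0.75 ± 0.17 on the log2 scale, but was at 0.38 ± 0.16 (adjusted p = 0.055) with that trend removed. Fgfr4, a receptor typical of myogenic cells, was at 32.4, 31.5 and 32.9 CPM in floxed vehicle and 19.4, 17.5 and 20.8 CPM in knockout vehicle, and fell by 0.75 (SE 0.10, adjusted p = 8.4e-06), or by 1.3 with that trend removed. Of the 5 receptor genes tested, 2 rose, 2 fell and Fgfr2 was not called (0.27 ± 0.13), where 63.3% of all tested genes were called in either direction. With the trend removed 0 of the 5 were called higher and 2 lower, where 9284 of 15720 tested genes were called, 47.9% of them higher.

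**Figure D3:**
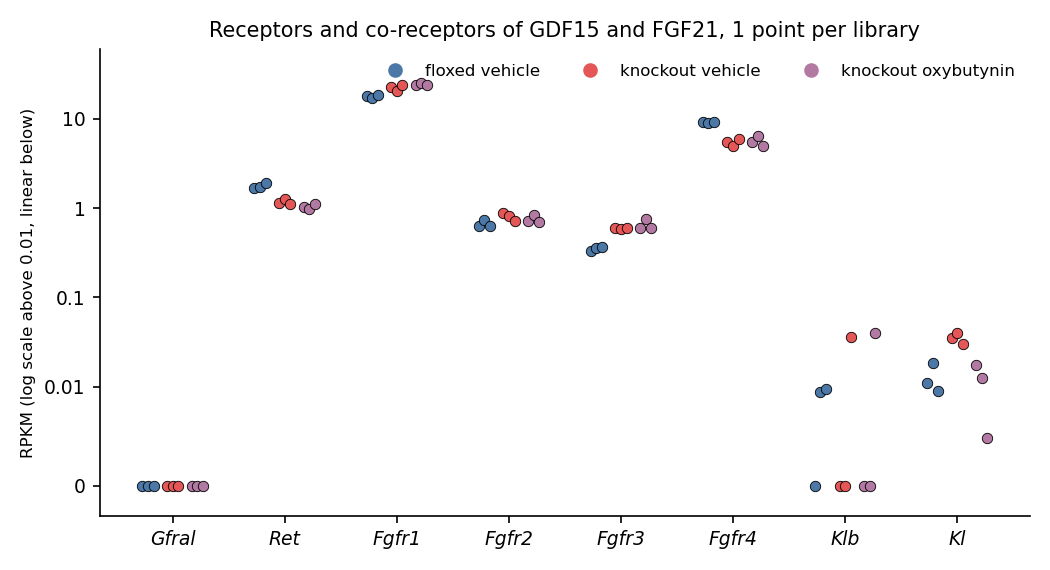
Levels of 8 receptor and co-receptor genes in RPKM, 1 point per library, on an axis that is logarithmic above 0.01 and linear below. The genes are those listed for GDF15 and FGF21, with Kl, the co-receptor gene of FGF23, beside them. Gfral is at 0 in all 9 libraries and Klb and Kl are near 0, while Fgfr1 and Fgfr4 are the highest in each group.

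Both mitokines are cut by proteases, GDF15 by furin-like convertases that release the mature hormone and FGF21 by fibroblast activation protein (Fap), which inactivates it. Furin was at 203 ± 4.94 CPM in floxed vehicle and 164 ± 27.3 CPM in knockout vehicle (log2 fold change -0.30 ± 0.10, adjusted p = 0.015). Pcsk5 fell (-0.96 ± 0.33, adjusted p = 0.016) from a level of 1.12 ± 0.291 CPM. Pcsk7 rose by 0.30 ± 0.09 (adjusted p = 0.011), a direction that turned to -0.11 with the GC and length trend removed, and Pcsk6, not called as reported (0.17 ± 0.10), was called lower with the trend removed (-0.26, adjusted p = 0.016), when Furin was at -0.61. Fap was too low to be tested, at a mean of 0.217 to 0.344 CPM over the groups. Of the 4 processing genes tested, 1 rose, 2 fell and 1 was not called, where 29.9% of all tested genes rose and 33.4% fell. The Furin call was lost without floxed vehicle replicate 3 (adjusted p = 0.051), and its value was -0.17 without knockout vehicle replicate 2. The Pcsk5 call was lost without floxed vehicle replicate 2 (adjusted p = 0.097), and the number of processing genes that rose was 2 without knockout vehicle replicate 2. The fit without that knockout library called 10994 of 16114 genes, 49.1% of them higher.

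Regulators tied to Gdf15 or Fgf21 rose with them in the main. All 20 listed were tested, and from floxed to knockout vehicle 14 rose, 2 fell and 4 were not called, with a median log2 fold change of 1.04, where 29.9% of all tested genes rose and 33.4% fell. Trib3, a pseudokinase that dampens ATF4 signalling, rose by 3.26 ± 0.14 (adjusted p = 7.9e-12), and Ddit3, which encodes CHOP, by 2.96 ± 0.12 (adjusted p = 5.7e-12). Ddit3 was at 6.18, 5.54 and 6.67 CPM in floxed cells and 42.3, 48.4 and 52.1 CPM with knockout. With knockout and drug it was at 52.4, 54.4 and 62.8 CPM. Its floxed libraries thus lay apart from all knockout libraries, as for Gdf15. Of all tested genes, 66.7% did not overlap between floxed vehicle and knockout vehicle, and 78.9% between floxed vehicle and knockout oxybutynin. Atf3, a stress-induced partner of CHOP and ATF4, rose by 2.37 ± 0.16, and Nr4a1, an immediate early nuclear receptor, by 1.97 ± 0.11. Mlxipl, which encodes the carbohydrate-responsive factor ChREBP, rose by 2.44 ± 0.40 from a low mean of 0.262 ± 0.0423 CPM. Atf4 itself, named outside the rule, was at 380 ± 8.13 CPM in floxed vehicle and 834 ± 89.1 CPM in knockout vehicle (SD, n = 3) and rose by 1.13 ± 0.09 (adjusted p = 6.8e-09), or by 0.71 with the GC and length trend removed.

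The 2 regulators that fell were Ppargc1a and Hif1a. Ppargc1a encodes PGC-1 alpha, the coactivator of mitochondrial biogenesis, and fell by 1.25 on the log2 scale (SE 0.10, adjusted p = 8.0e-09). Hif1a, the oxygen-responsive factor, fell by 0.88 (SE 0.09, adjusted p = 1.3e-07). With the GC and length trend removed Ppargc1a was at -0.49 and the Hif1a call was lost (-0.11, adjusted p = 0.11). The 4 not called were Trp53, Egr1, Nfe2l2 and Atf6, which encode the regulators p53, EGR1 and NRF2 and the endoplasmic reticulum sensor ATF6. Their log2 fold changes lay between -0.16 and 0.15. With the trend removed all 4 were called, Atf6 (0.41) and Nfe2l2 (0.23) higher and Egr1 (-0.63) and Trp53 (-0.29) lower. Trib3, Ddit3 and Atf3 are known targets of ATF4 as well as regulators, so they are not a separate readout from the target list.

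Of 14 other ATF4 targets, all 14 rose from floxed to knockout vehicle, with a median log2 fold change of 1.37 and no overlap between groups for any of them, where 29.9% of all tested genes rose and 66.7% did not overlap. Cth, which makes cysteine in the transsulphuration pathway, rose by 2.66 ± 0.11 (adjusted p = 5.6e-12), and Pck2, the mitochondrial phosphoenolpyruvate carboxykinase, by 2.08 ± 0.11 (adjusted p = 7.6e-11). Chac1, a glutathione-degrading enzyme, rose by 2.05 ± 0.09 (adjusted p = 1.9e-11). Aldh1l2, a mitochondrial folate enzyme, and Vldlr, a lipoprotein receptor, rose by 1.85 ± 0.09 and 1.85 ± 0.10. The log2 fold change of Gdf15 was above every gene of this list and that of Fgf21 lay within its range. With the GC and length trend removed, Cth (3.05) stood above Gdf15 (2.63). All 14 targets were called higher under that setting, as were 15 of the 20 regulators, with 3 lower, and Pparg lost its call. Over all 15720 tested genes that setting called 9284, 47.9% of them higher.

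With oxybutynin in knockout cells, edgeR called 0 of the 20 regulators and 0 of the 14 targets. DESeq2 called 4 and 1, limma-voom 0 and 0, and 11 and 6 had an unadjusted p under 0.05. Over all 15720 tested genes, DESeq2 called 1134 and 4084 had an unadjusted p under 0.05. Without knockout vehicle replicate 3, the library whose removal also brought the Gdf15 call, 6 regulators were higher and 3 lower, and 8 targets were higher. That fit called 4188 of 16097 genes, 44.7% of them higher. With all libraries kept, the median log2 fold change was 0.19 for the regulators and 0.17 for the targets, beside -0.0028 for all tested genes. For Trib3 it was 0.37 ± 0.12 (adjusted p = 0.097), for Ddit3 0.25 ± 0.10 (adjusted p = 0.15) and for Atf4 0.23 ± 0.09 (adjusted p = 0.13), values close in size to the 0.26 of Gdf15. With the GC and length trend removed, the list medians were 0.013 for the regulators and 0.11 for the targets. Gdf15 was then at 0.03 and the median of all tested genes at -0.0015.

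**Figure D4:**
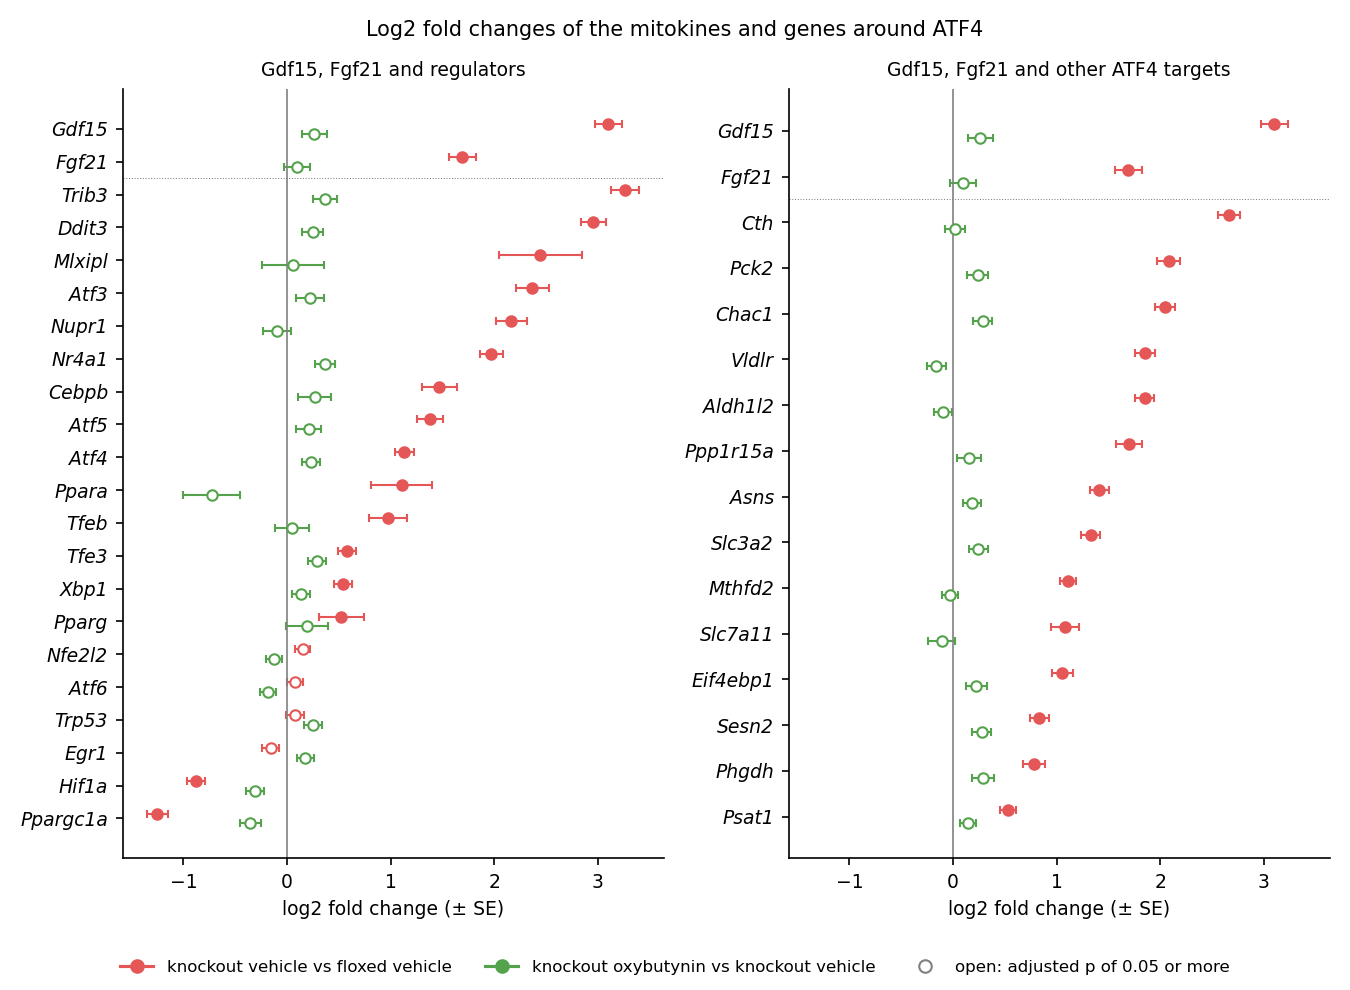
Log2 fold changes ± SE of Gdf15 and Fgf21 above those of 20 regulators (left) and 14 other ATF4 targets (right), for knockout vehicle against floxed vehicle (red) and knockout oxybutynin against knockout vehicle (green), with open symbols for an adjusted p of 0.05 or more. In red, 14 regulators and all 14 targets are filled to the right of 0, and in green none is filled.

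Genes known to answer FGF receptor signalling moved in both directions. Of 11 feedback and immediate target genes, 4 rose, 3 fell and 4 were not called from floxed to knockout vehicle (median log2 fold change 0.07), near the 29.9% of all tested genes that rose and 33.4% that fell. Those that rose were the transcription factors Etv5 (1.06 ± 0.08, adjusted p = 8.5e-09) and Etv4 (0.28 ± 0.08), the receptor-like inhibitor Il17rd (0.52 ± 0.11) and the ERK phosphatase Dusp6 (0.26 ± 0.08). Those that fell were the ERK pathway inhibitors Spred1 (-1.0 ± 0.10, adjusted p = 8.3e-08) and Spry4 (-0.38 ± 0.08) and the phosphatase Dusp5 (-0.49 ± 0.09). Removing the GC and length trend turned Etv4 to -0.23 and gave 4 higher and 6 lower, where 9284 of 15720 genes were called, 47.9% of them higher. It left Spred1 at -0.19 and Dusp6 at 0.14, and put Dusp5 at -0.95 and Spry4 at -0.62. With the drug edgeR and limma-voom called none of the 11, DESeq2 called 2, and 4 had an unadjusted p under 0.05. Among all 15720 tested genes DESeq2 called 1134, and 4084 had an unadjusted p under 0.05.

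Gdf15 and Fgf21 were not the only secreted factors to rise. Of 20 other stress-related secreted factors and myokines, 19 were tested, and 13 rose, 5 fell and 1 was not called (median log2 fold change 0.95), where 29.9% of all tested genes rose and 33.4% fell. Ostn, the muscle peptide musclin, had 0, 1 and 2 counts in floxed cells, 122, 108 and 100 with knockout and 104, 97 and 96 with knockout and drug. Angptl6 rose by 3.69 ± 0.31 and Adm2, an ATF4-responsive peptide of the adrenomedullin family, by 3.42 ± 0.27, from floxed means of 0.383 ± 0.183 and 0.390 ± 0.170 CPM. These log2 fold changes exceed that of Gdf15, but at knockout vehicle means of 4.99 ± 1.05 and 4.16 ± 0.554 CPM. Stc2, another secreted protein of the unfolded protein response, rose by 0.98 ± 0.10 (adjusted p = 1.3e-07) to a mean of 36.1 ± 2.60 CPM. Those that fell were the growth factor Igf1 (-1.90 ± 0.27), the myostatin antagonist Fst (-1.11 ± 0.10), Apln (-0.97 ± 0.10), Bdnf (-0.81 ± 0.12) and the irisin precursor Fndc5 (-0.62 ± 0.11). With the trend removed Bdnf was at 0.023, Igf1 at -0.69, Fst at -0.72 and Fndc5 at -0.99, and 11 of the list were higher and 4 lower. Of 15720 tested genes, 9284 were called under that setting, 47.9% of them higher.

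The chromosomal neighbours were examined for comparison. The nearest protein-coding gene on the right of Gdf15, Pgpep1 (13978 bases away), rose by 0.88 ± 0.11 (adjusted p = 1.2e-06), and Lrrc25 on the left (7909 bases) had 0 to 5 counts per library and was not tested. Beside Fgf21, Bcat2 (24174 bases to the left), a mitochondrial enzyme of branched-chain amino acid breakdown, rose by 1.14 ± 0.12 (adjusted p = 1.7e-07), and Fut1 (1798 bases to the right) had 2 to 11 counts and was not tested. With the GC and length trend removed Pgpep1 was at 0.51 and Bcat2 at 0.73, both still called. Over all tested genes, 29.9% were called higher with the trend left in. With it removed, 9284 of 15720 were called, 47.9% of them higher.

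Across the 9 libraries the mitokines ran closely together, with Pearson's r of 0.992 between their log2 CPM. The points fall into 3 floxed and 6 knockout libraries, so the value is a description of that split. Among 8968 tested genes averaging 10 CPM or more, Fgf21 was 195th in likeness to Gdf15, and Gdf15 was 37th in likeness to Fgf21. The genes most like Gdf15 were Hexa (r = 0.9993), a lysosomal hexosaminidase subunit, then Adssl1, Acot11, Blvrb, Herpud1, which acts in degradation of proteins from the endoplasmic reticulum, and Lonp1, the mitochondrial matrix protease. The genes most like Fgf21 were Mta3 (r = 0.9974), Chchd10, a mitochondrial intermembrane space protein, Enho, which encodes the secreted peptide adropin, Gprc5b, Serhl and Alox5. As 2238 genes had r above 0.9 with Gdf15 and 2208 with Fgf21, such likeness was common. The order held for Pearson's r only. By Spearman correlation the genes named for Gdf15 ranked from 1st (Adssl1) to 238th (Acot11 and Blvrb). Those named for Fgf21 ranked from 3rd (Enho) to 863rd (Mta3).

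Library totals ran from 19604971 to 26226949 counts. Uqcrfs1 was at 79.6 ± 3.67 CPM in floxed cells, and at 2.45 ± 0.356 and 2.56 ± 0.437 CPM in the knockout with vehicle and with the drug, the order the labels call for. The 8 myoblast markers were all tested and summed to 3089 to 3232, 3068 to 3910.1 and 3785 to 4069.9 CPM in the 3 groups. From floxed to knockout vehicle 3 of them rose and 3 fell, where 63.3% of all tested genes were called in either direction. The cadherin gene Cdh15 was at 190.0 ± 15.3 and 103 ± 14.1 CPM and the differentiation factor Myog at 199.8 ± 16.7 and 136 ± 11.9 CPM. In the other direction, Pax7 was at 317, 322 and 325 CPM in floxed vehicle and 376, 380 and 400 CPM in knockout vehicle. Des was at 701, 683 and 698 CPM, then 944, 786 and 1077 CPM. Pax7 and Des changed direction with the GC and length trend removed. The part of the myoblast markers in the result was not tested. Summed markers of other cell types were lower: 5 fibroblast markers at 24.7 to 27.6, 54.6 to 71.2 and 59.3 to 77.6 CPM (Col1a1 most of it, Tcf21 at 0), and 6 macrophage and leukocyte markers at 8.98 to 10.0, 15.6 to 18.2 and 17.8 to 20.4 CPM (Ptprc, the pan-leukocyte gene, at a mean of 0.193 CPM or less). The fibroblast and leukocyte sums, like the mitokines, were higher in every knockout library than in every floxed library. Cd68 and Lyz2 made up most of the leukocyte sum. The part of these sums in the result was not tested. The 4 endothelial markers stayed between 2.18 and 3.39 CPM, 2 Schwann cell markers between 0.153 and 0.735 CPM, and hepatocyte and adipocyte markers, from cell types known to make FGF21, summed to at most 0.162 and 0.163 CPM with Alb, Ttr and Lep at 0.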

How the data were processed

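The deposited table holds whole-number counts per gene for 9 libraries, not normalized by the authors. Per the labels' protocols, total RNA was purified with Trizol and made into directional libraries with a NEBNext Ultra II kit. Per the submitters' processing notes, the tools were STAR 2.7.0e, Trim Galore 0.6.0, FastQC, cutadapt and DESeq2 1.26.0, and the builds GRCm38 and mm10. Not given in the sources used here were the tool that counted reads, the strandedness it assumed and its annotation. The 55536 identifiers were all found in GENCODE M21 (GRCm38), which gave names, coordinates, exon lengths and the GC content of each gene's longest transcript.

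Deposited counts went unchanged into edgeR 4.0.16 (R 4.3.3), with filterByExpr on the 3 groups, TMM scaling and quasi-likelihood tests over all 9 libraries (6 residual degrees of freedom, no covariate). A gene was called at a Benjamini-Hochberg adjusted p-value under 0.05 over 15720 genes. RPKM values are TMM-scaled CPM per kilobase of merged exons. Likeness and the permutation tests of the members used log2 CPM with a prior count of 2. On simulated counts of 15720 genes for knockout vehicle against floxed vehicle, 70% of genes changed 1.5-fold and 98% of those changed 2-fold were recovered. Only 200 genes, drawn above a minimum level, were changed there, against 9957 called in the data. The drug comparison was not simulated. Alternatives were DESeq2 1.42.0, limma-voom (limma 3.58.1), RLE or total scaling, scaling without mitochondrial and ribosomal RNA genes, other filters, 2 groups at a time, removal of the GC and length trend (spline offsets fitted without regard to group), an adjusted p under 0.01, and leaving out each library.

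The members and the 8 pathway and 7 marker lists were chosen with earlier results of these data known, and 1 listed Schwann cell marker is not reported here. The text names the members, Uqcrfs1, at most 5 genes per list by lowest adjusted p, genes that define a list, the nearest coding genes and the 6 genes most like each member. Atf4, Hif1a, Mlxipl, Pparg, Fgf2, Trp53, Egr1, Nfe2l2, Atf6, Fap, Dusp6, Spry4, Tgfb3, Gdf6, Igf1, Apln, Bdnf and Fndc5 were added to complete small counts or orders after their values were seen. A gene that overlaps another on the opposite strand cannot be told from it without the strand setting.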

Additional observations from a re-analysis of the deposited data

How the results depend on the processing

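From floxed vehicle to knockout vehicle or oxybutynin, Gdf15 and Fgf21 kept their direction and call under all 20 alternatives. For knockout vehicle the log2 fold change ran from 2.63 to 3.25 for Gdf15 and from 1.38 to 1.86 for Fgf21. For Gdf15 with oxybutynin against vehicle in knockout cells, leaving out a library gave 0.13 to 0.41, the latter called without knockout vehicle replicate 3. For Fgf21 the range over all alternatives was -0.08 to 0.21, never called.

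The number of genes called between the knockout groups (2 as reported) was 1134 with DESeq2, 7 with RLE scaling, 158 with library totals, 1099 with no filter, 1 with protein-coding genes only, and 0 with the GC and length trend removed or at an adjusted p under 0.01. Leaving out a library gave 0 to 4188, with 4188 without knockout vehicle replicate 3 and 63 without replicate 2. The share of these calls that were higher was 50% as reported, 15.3% with DESeq2, 28.6% with RLE and 6.33% with totals. The causes were not tested.

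Removing the GC and length trend turned the direction of genes of the lists that were called before or after it. For knockout against floxed vehicle these were Pcsk6 (-0.26), Pcsk7 (-0.11), Trp53 (-0.29), Etv4 (-0.23), Fgf2 (0.61), Mstn (0.45), Sparc (-0.059), Bdnf (0.023), Pax7 (-0.13), Myf5 (0.35), Myod1 (-0.25) and Des (-0.051). For knockout oxybutynin against floxed vehicle they were Pcsk6 (-0.15), Pcsk7 (-0.25), Atf6 (0.41), Egr1 (-0.63), Trp53 (-0.15), Etv4 (-0.10), Fgf2 (0.14), Mstn (0.10), Gdf6 (-0.021), Bdnf (0.039), Pax7 (-0.12), Myf5 (0.18), Myod1 (-0.24), Itga7 (-0.49) and Des (-0.046). Over 387 results for single genes, 7312 of 7662 values kept direction and call, 75 lost and 104 gained a call, the 27 above turned, and 144 turned without being called before or after.

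No paired analysis was possible because the labels number the libraries in 1 series without replicate numbers shared between groups. With 3 libraries per group, an exact permutation test cannot go below 0.1. Genes under the filter, such as Klb, could not be compared at this depth.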
